A study of Mus musculus with 8 samples.

Results

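The p21-activated kinases (PAKs) are serine/threonine kinases that act downstream of the small GTPases Cdc42 and Rac. The 6 family genes Pak1, Pak2, Pak3, Pak4, Pak6 and Pak7 were taken by gene symbol from the 54532 genes of the count table, where each had 1 row, and all 6 passed the filter on low counts. Pak7, whose protein is usually called PAK5, was chosen for its high level in the Nsun5-KO-labelled libraries, and the other 5 genes are its paralogs. The difference of Pak7 between genotypes is therefore given as a description with no test, while the 5 paralogs were tested. Expression was measured by bulk RNA sequencing of brain from male mice aged 3 months, with 4 Nsun5-KO-labelled libraries and 4 WT libraries. Nsun5 encodes an RNA methyltransferase of the large ribosomal RNA. The labels describe littermates, 5 mice of each genotype, all anaesthetised with pentobarbital; they do not say which allele removed Nsun5 or tie each library to a mouse, so p-values measure the spread between these libraries.

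PAKs bind Cdc42 and Rac in their GTP-loaded form. The group I kinases PAK1, PAK2 and PAK3 are held inactive by their own N-terminal part until the GTPase binds, and the group II kinases PAK4, PAK5 and PAK6 are regulated differently. Active PAKs phosphorylate LIM kinases, which in turn phosphorylate the actin-severing protein cofilin, and through such targets the family shapes the cytoskeleton of growth cones and dendritic spines in neurons.

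Libraries held 15642086 to 17829523 counts. The targeted gene did not separate the genotypes: Nsun5 had 102, 124, 83 and 110 counts in the Nsun5-KO-labelled libraries, against 91, 82, 103 and 109 counts in WT libraries (edgeR log2 fold change 0.13, adjusted p = 0.817), so every direction below is that of the labels. Brain markers were abundant, with summed levels of 8 neuronal genes of 7014 to 7514 CPM (counts scaled to library size) in the Nsun5-KO-labelled libraries and 6103 to 6439 CPM in WT, and of 7 astrocyte genes of 3302 to 3940.5 CPM in the Nsun5-KO-labelled libraries and 3185 to 3714 CPM in WT. The series names the whole brain, but Gabra6 and Pcp2, of the 7 genes in the cerebellar list, were near 0 counts in most libraries. The amount of cerebellum in the libraries was not tested. Gabra6 had 0 to 1 counts in the Nsun5-KO-labelled libraries and 0 to 30 in WT. Pcp2 had 0 to 4 in the Nsun5-KO-labelled libraries and 0 to 19 in WT. Both were highest in WT replicate 2. Of the other 5, Zic1 had 264 to 508 counts in the Nsun5-KO-labelled libraries and 352 to 1105 in WT, Neurod1 had 122 to 234 in the Nsun5-KO-labelled libraries and 122 to 233 in WT, and Cbln3, Barhl1 and En2 had 1 to 84 in the Nsun5-KO-labelled libraries and 6 to 49 in WT. WT replicates 1 and 2 stood apart from the other 6 libraries on the first principal component (at least 29.7, against -23.8 to -1.75). In bulk tissue, fewer cells of a type and less RNA per cell cannot be told apart.

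Pak1 was by far the most abundant family member in brain. Pak1 encodes PAK1, the group I kinase best known for control of neuronal actin. Per length, its level was 151 ± 5.84 FPKM (the deposited fragment level per gene length and library size) in the Nsun5-KO-labelled libraries and 125 ± 8.31 FPKM in WT (SD, n = 4 each). It made up 74.0% ± 0.930 of the summed FPKM of the 6 genes in the Nsun5-KO-labelled libraries and 71.5% ± 2.17 in WT. Pak3, the neuronal group I kinase encoded on the X chromosome and linked to intellectual disability in humans, came next at 16.3 ± 1.64 FPKM in the Nsun5-KO-labelled libraries and 17.8 ± 4.04 FPKM in WT. Pak4, a widely expressed group II kinase gene needed for embryonic development in mice, was the lowest at 2.37 ± 0.292 FPKM in the Nsun5-KO-labelled libraries and 2.62 ± 0.145 FPKM in WT.

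The order of the group means differed between the genotypes in the place of Pak7. Pak7 was chosen for its high level in the Nsun5-KO-labelled libraries, so this difference is a description. In the Nsun5-KO-labelled libraries, Pak6 (13.6 ± 1.17 FPKM) and Pak7 (12.9 ± 1.87 FPKM) overlapped, with Pak6 above Pak7 in 2 of 4 libraries, and both lay above Pak2 (7.89 ± 0.134 FPKM). In WT, Pak6 (13.2 ± 1.52 FPKM) lay above both Pak2 (8.28 ± 0.720 FPKM) and Pak7 (7.84 ± 0.635 FPKM), and Pak2 was above Pak7 in 2 of 4 libraries. Pak3 and Pak6 overlapped in range in both groups, but Pak3 was the higher in 4 of 4 libraries of each. All other neighbours in the order had separate ranges. The order between genes also rests on the deposited length, the merged exons of all annotated transcripts (9552 bases for Pak3, 5211 for Pak6, 6505 for Pak7). That length is the same in every library, so counts of libraries do not check it. In CPM, without length, Pak7 (84.4 ± 12.1) averaged above Pak6 (71.1 ± 6.18) in the Nsun5-KO-labelled libraries.

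**Figure D1:**
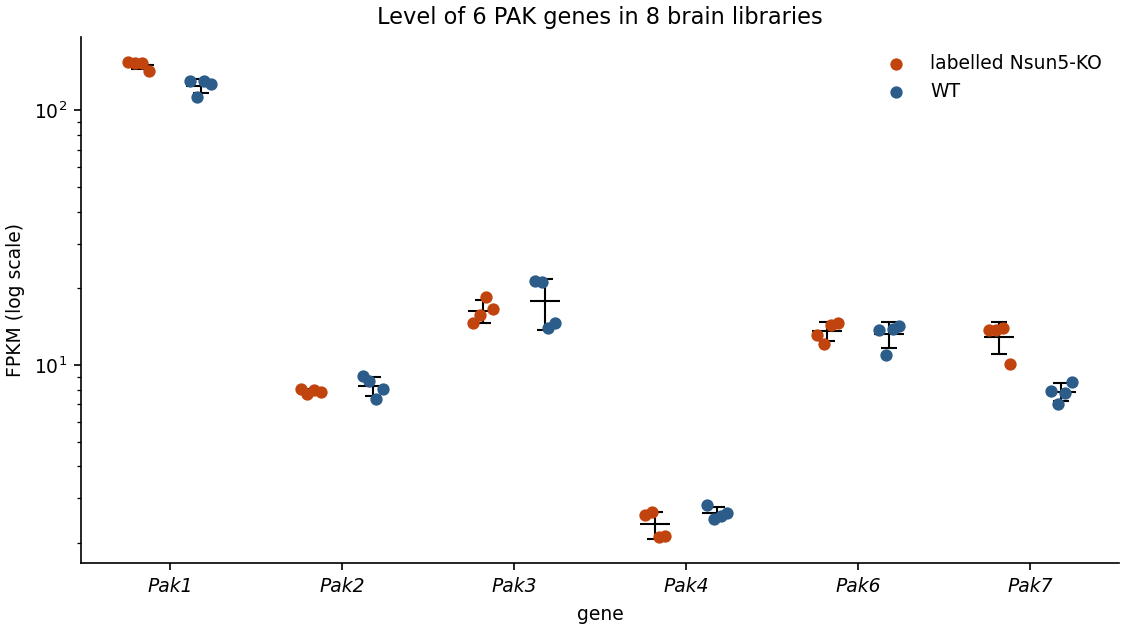
Level of each PAK gene in FPKM (log scale) in the 4 Nsun5-KO-labelled libraries (left of each pair) and the 4 WT libraries (right); points are libraries, horizontal lines group means and bars ± 1 SD. Pak1 lies at 142 to 155 FPKM in the Nsun5-KO-labelled libraries and 113 to 131 FPKM in WT, and Pak7 averages 12.9 FPKM in the Nsun5-KO-labelled libraries and 7.84 FPKM in WT.

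Pak7 (ENSMUSG00000039913, chromosome 2, 136081104 to 136387967, minus strand, mm10) is the group II member most restricted to the nervous system, where its kinase has been tied to neurite growth. It had 90.0, 90.1, 91.2 and 66.3 CPM in the Nsun5-KO-labelled libraries 1 to 4, against 52.0, 46.3, 51.2 and 56.3 CPM in WT replicates 1 to 4. The Nsun5-KO-labelled replicate 4 lay well below the other 3 of its group, and the groups did not overlap. The means were 84.4 ± 12.1 CPM in the Nsun5-KO-labelled libraries and 51.5 ± 4.09 CPM in WT, a log2 fold change of 0.71, or 1.64-fold. This is the value by which the gene was chosen. The log2 fold change ranged from 0.66 to 0.81 with single libraries left out, and it was 0.81 without Nsun5-KO-labelled replicate 4.

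Set against a paralog within each library, Pak7 was again higher in the Nsun5-KO-labelled libraries, by an amount that depended on the paralog. Since it was chosen by this contrast, these ratios are a description. The ratio of Pak7 to Pak6 FPKM was 1.04, 1.14, 0.974 and 0.690 in the Nsun5-KO-labelled libraries, against 0.575, 0.644, 0.564 and 0.603 in WT. All 4 ratios of the Nsun5-KO-labelled libraries lay above those of WT, the nearest being replicate 4. The ratio to Pak2 averaged 1.63 ± 0.233 in the Nsun5-KO-labelled libraries and 0.953 ± 0.127 in WT. The ratio to Pak1 differed less, at 0.0852 ± 0.00955 in the Nsun5-KO-labelled libraries and 0.0627 ± 0.00363 in WT. Its nearest values were 0.0709 in Nsun5-KO-labelled replicate 4 and 0.0679 in WT replicate 4. Pak7 made up 6.30% ± 0.726 of the family's summed FPKM in the Nsun5-KO-labelled libraries and 4.48% ± 0.299 in WT. The family sum itself was 204 ± 7.26 FPKM in the Nsun5-KO-labelled libraries and 175 ± 9.12 FPKM in WT, and most of that difference in FPKM was Pak1. The shares of Pak2 (3.87% ± 0.127 in the Nsun5-KO-labelled libraries and 4.75% ± 0.458 in WT) and Pak4 (1.30% at most in the Nsun5-KO-labelled libraries and 1.46% at least in WT) did not overlap between groups, being lower in the Nsun5-KO-labelled libraries. A share also moves with the rest of the sum, and these were not tested.

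Pak1 (ENSMUSG00000030774, chromosome 7, 97788541 to 97912381, plus strand, mm10) had the next largest difference of the family. It had 617, 606, 606 and 566 CPM in the Nsun5-KO-labelled libraries, against 521, 450.2, 518 and 502 CPM in WT. The groups did not overlap, and WT replicate 2 was the lowest of the 8 libraries. Pak1 averaged 599 ± 22.2 CPM in the Nsun5-KO-labelled libraries and 498 ± 32.8 CPM in WT, a log2 fold change of 0.27 (SE 0.07, 95% interval 0.12 to 0.41, or 1.09- to 1.33-fold). It did not pass edgeR's quasi-likelihood test over all genes (unadjusted p = 0.00206, adjusted p = 0.313). DESeq2 gave nearly the same log2 fold change with an adjusted p = 0.0328. Of 8 DESeq2 fits with a library left out, chosen after seeing the data, 2 kept the adjusted p below 0.05, and it was 0.0267 without Nsun5-KO-labelled replicate 4 and 0.0203 without WT replicate 3. The other fits gave 0.305, 0.141 and 0.189 without Nsun5-KO-labelled replicate 1, 2 or 3, and 0.0654, 0.152 and 0.0587 without WT replicate 1, 2 or 4.

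Among the 5 tested paralogs, 0 passed edgeR at an adjusted p below 0.05, the share over all 16062 genes tested being 0% as well. At an unadjusted edgeR p below 0.05, 1 of 5 (Pak1) was higher and 0 were lower, where 5.3% of all genes were higher and 5.05% lower. DESeq2 called Pak1 and none of the other 4 (adjusted p = 0.816 to 0.956), in a table in which it called 0.394% of 13977 genes higher and 0.3% lower. Groups separated without overlap, and higher in the Nsun5-KO-labelled libraries, in 2.99% of all genes; of the 5 paralogs this was 1, Pak1, and Pak7 was picked by the same contrast.

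The promoter letters of Pak7 and Pak1 are shown because these are the genes whose groups did not overlap. RefSeq (GRCm38.p6) gave a window of 250 bases before to 50 after the start for 5 of the 6 genes, with no entry for Pak2. These 5 genes have 9 windows, 2 of them for Pak1, and the windows shown are those at the start of the annotated gene. Capitals mark every match, on either strand, to the cAMP response element TGACGTCA, the E-box CACGTG, the CCAAT box, the GC box GGGCGG or the TATA box TATAAA, and a capital run can hold overlapping matches.
Pak7, chr2:136387918-136388217, minus strand: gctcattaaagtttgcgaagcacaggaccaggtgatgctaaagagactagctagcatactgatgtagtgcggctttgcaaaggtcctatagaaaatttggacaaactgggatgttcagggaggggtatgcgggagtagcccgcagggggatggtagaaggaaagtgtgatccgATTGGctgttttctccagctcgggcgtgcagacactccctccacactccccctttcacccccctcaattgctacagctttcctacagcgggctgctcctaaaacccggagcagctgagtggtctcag
Pak1, chr7:97788291-97788590, plus strand: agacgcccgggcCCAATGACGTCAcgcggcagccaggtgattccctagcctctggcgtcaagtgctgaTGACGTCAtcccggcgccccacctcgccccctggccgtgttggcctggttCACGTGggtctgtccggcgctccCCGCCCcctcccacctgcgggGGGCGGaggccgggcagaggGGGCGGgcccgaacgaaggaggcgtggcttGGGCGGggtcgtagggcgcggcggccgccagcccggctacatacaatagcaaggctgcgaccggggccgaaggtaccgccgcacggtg

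The window of Pak1 at the gene start was 73.0% G or C and held the cAMP response element in 2 places, 234 and 182 bases before the start, the upstream copy overlapping a CCAAT box. It also held 1 E-box and 4 GC boxes. The other Pak1 window, at chr7:97842689-97842988, was 53.7% G or C and held 1 CCAAT box, 4 GC boxes and no cAMP response element or E-box. The window of Pak7, its single one, was 53.3% G or C and held 1 CCAAT box, 77 bases before the start, read on the opposite strand, and no other of these motifs. Of 32851 mouse promoter windows of the same length, 1.79% held the cAMP response element, 7.15% the E-box, 37.4% the CCAAT box, 35.7% the GC box and 13.6% the TATA box, and the median was 52.7% G or C. These matches describe letters and say nothing of a factor at work.

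Pak3 (chromosome X, 143518591 to 143797796, plus strand) was the member that varied most within a group. It had 141, 150.4, 177 and 159 CPM in the Nsun5-KO-labelled libraries, against 206, 205, 135 and 140.2 CPM in WT. WT replicates 1 and 2 were the highest of the 8 libraries, and WT replicates 3 and 4 the lowest. The means were 157 ± 15.5 CPM in the Nsun5-KO-labelled libraries and 171 ± 39.2 CPM in WT (edgeR adjusted p = 0.818, log2 fold change -0.13 with SE 0.15 and a 95% interval of -0.46 to 0.21). Without WT replicates 1 and 2 the log2 fold change turned to 0.19 (edgeR adjusted p = 0.697). Those 2 libraries also had the highest share of mitochondrially encoded counts, 7.27% and 7.68%, against 5.52% to 6.23% in the Nsun5-KO-labelled libraries and 5.97% and 5.93% in WT replicates 3 and 4. They likewise had the highest scores of the hypothalamic list, 0.41 and 0.69, against -2.27 to -1.62 in the Nsun5-KO-labelled libraries and 0.19 and -1.30 in WT replicates 3 and 4. A score is the mean log2 CPM of a list's tested genes minus its WT mean, and the part of these measures in the level of Pak3 was not tested.

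Pak2, Pak6 and Pak4 did not pass the edgeR test. Pak2, the widely expressed group I kinase gene, at chromosome 16, 32016290 to 32079342 (minus strand), had 54.9, 52.7, 54.4 and 53.8 CPM in the Nsun5-KO-labelled libraries, against 62.0, 59.4, 50.7 and 55.1 CPM in WT. All 4 Nsun5-KO-labelled libraries lay inside the WT range (log2 fold change -0.07, SE 0.08, adjusted p = 0.781, interval of the fold 0.847 to 1.07). Pak6, a group II kinase gene whose human protein binds the androgen receptor, at chromosome 2, 118663303 to 118698020 (plus strand), had 69.0, 63.3, 75.0 and 76.9 CPM in the Nsun5-KO-labelled libraries, against 72.5, 57.6, 72.7 and 74.7 CPM in WT. The groups overlapped almost wholly (log2 fold change 0.04, SE 0.10, adjusted p = 0.930, interval of the fold 0.888 to 1.18), and the sign turned without WT replicate 2 (-0.05) or without Nsun5-KO-labelled replicate 4 (-0.0065).

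Pak4, at chromosome 7, 28558819 to 28598185 (minus strand), had 9.18, 9.45, 7.46 and 7.60 CPM in the Nsun5-KO-labelled libraries, against 10.1, 8.85, 9.13 and 9.36 CPM in WT. The Nsun5-KO-labelled replicates 3 and 4 were below every WT library, and replicates 1 and 2 were inside the WT range (log2 fold change -0.15, SE 0.13, adjusted p = 0.726, interval of the fold 0.743 to 1.09). Pak4 rests on 120 to 160 counts in the Nsun5-KO-labelled libraries and 138 to 173 in WT, so counting error alone is 8.45% of its level in the Nsun5-KO-labelled libraries and 7.99% in WT. The observed spread was 12.3% in the Nsun5-KO-labelled libraries and 5.53% in WT. Pak1, with 9749 to 10267 counts in the Nsun5-KO-labelled libraries and 7021 to 8954 in WT, has a counting error of at most 1.09%. The fold intervals of Pak2, Pak6 and Pak4 span 1, reaching as low as 0.743 (Pak4) and as high as 1.18 (Pak6). They do not show that the levels were equal.

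**Figure D2:**
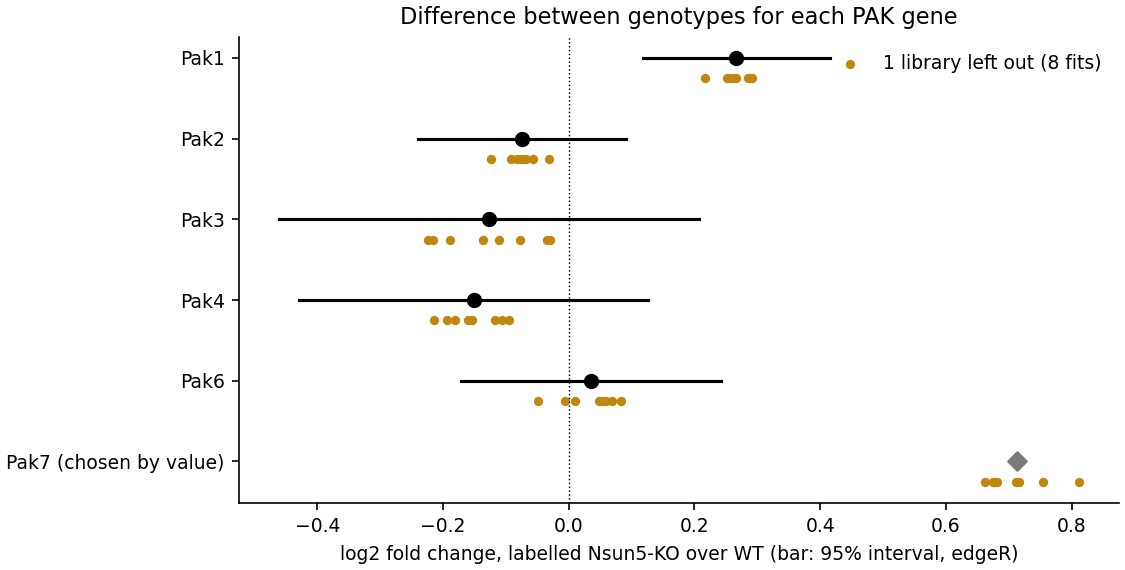
Fitted log2 fold change between the Nsun5-KO-labelled libraries and WT for each PAK gene (x axis; 4 libraries per group), with the 95% interval from edgeR as a line for the 5 tested paralogs and the values with 1 library left out as small points. Pak1 lies at 0.27 with an interval of 0.12 to 0.41, the intervals of Pak2, Pak3, Pak4 and Pak6 span 0, and Pak7, shown without interval because it was chosen by this value, lies at 0.71.

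The assignment of reads to single family members was little affected by shared sequence. Of the 50-base words in the annotated transcripts of each gene (GENCODE M21, whose coordinates matched the deposited ones for 6 of 6 genes), 0 occurred in another PAK gene. For Pak1, Pak3 and Pak7, 0 occurred in any other annotated gene, and the share was 3.94% for Pak2, 0.595% for Pak4 and 0.476% for Pak6. The gene Samd4b, with 1037 to 1399 counts, runs over the Pak4 locus on the same strand and shares 39 exonic bases with it. An antisense gene, Gm14218, lies inside Pak7 and had 0 counts in all libraries, as had the small nucleolar RNA gene Gm26419 inside Pak2, and the microRNA gene Mir7049 inside Pak4 had 0 to 1.

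Summed markers of neurons lay on the same side of WT as Pak7 and Pak1, although edgeR called 0 genes of any marker list after adjustment. Over all genes tested, 5.3% were higher and 5.05% lower at an unadjusted edgeR p below 0.05. DESeq2 called 0.394% of 13977 genes higher and 0.3% lower. Of the 8 neuronal genes, Snap25 having the highest CPM, 7 were above WT (5 at an unadjusted edgeR p below 0.05, 1 called by DESeq2), and the summed levels given above did not overlap. The 12 genes of cortical and hippocampal projection neurons, Camk2a having the highest CPM, summed to 4154 to 5264 CPM in the Nsun5-KO-labelled libraries and 3560 to 4493 CPM in WT, 11 of them above WT and their median at 0.34 on the log2 scale (7 at an unadjusted p below 0.05, 3 called by DESeq2). Their score was 0.49, 0.31, 0.55 and 0.13 in the Nsun5-KO-labelled libraries, against -0.01, -0.24, 0.18 and 0.07 in WT. The Nsun5-KO-labelled replicate 4, lowest of its group in Pak7 and Pak1, was also lowest of its group in this score, and WT replicate 2 was lowest of the WT libraries in all 3 measures. Other libraries did not all follow. In WT the score was highest in replicate 3, but Pak7 was highest in replicate 4 (56.3 CPM, against 51.2 CPM in replicate 3). The score of WT replicate 3 (0.18) also lay above that of Nsun5-KO-labelled replicate 4 (0.13), while Pak7 and Pak1 did not overlap between groups. Pak7 was chosen by this contrast, so these orders are a description.

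Other marker lists lay on the opposite side, their counts to be read against the same shares over all genes. The hypothalamic list, Ecel1 having the highest CPM, summed to 16.5 to 27.9 CPM in the Nsun5-KO-labelled libraries and 35.6 to 177 CPM in WT, and all 9 of its 14 genes that could be tested were below WT (6 at an unadjusted p below 0.05, 4 called by DESeq2). The 10 genes of myelinating oligodendrocytes, Mbp having the highest CPM, summed to 4650.3 to 6403 CPM in the Nsun5-KO-labelled libraries and 7144 to 7777 CPM in WT, and 10 of 10 were below WT (9 at an unadjusted p below 0.05, 2 called by DESeq2). So were 6 of 6 ependymal genes, summed to 10.6 to 20.1 CPM in the Nsun5-KO-labelled libraries and 22.1 to 36.8 CPM in WT (6 at an unadjusted p below 0.05, 2 called by DESeq2). The 6 choroid plexus genes, also 6 of 6 below WT, summed to 51.5 to 1182 CPM in the Nsun5-KO-labelled libraries and 308 to 1163 CPM in WT (0 at an unadjusted p below 0.05, 0 called by DESeq2). Of the 6 genes of oligodendrocyte precursors 5 were below WT, by a median of -0.22, with 3 lower at an unadjusted p below 0.05 and 1, Sox10, called by DESeq2 (adjusted p = 0.0492). In blood 2 of 5 genes were above WT, and 1, Hba-a2, was lower by DESeq2 (adjusted p = 0.0400). DESeq2 called 0 genes in the lists of inhibitory neurons (3 of 8 above WT, with an unadjusted p below 0.05 for 1 above and 2 below), thalamus (2 of 7 above), cerebellum (2 of 5, 1 such gene below), astrocytes (2 of 7), microglia (3 of 7, 1 below) and endothelial cells (2 of 6). No gene of the marker lists was at 0 counts in all libraries, and the part of these cell types and regions in the levels of Pak7 and Pak1 was not tested.

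**Figure D3:**
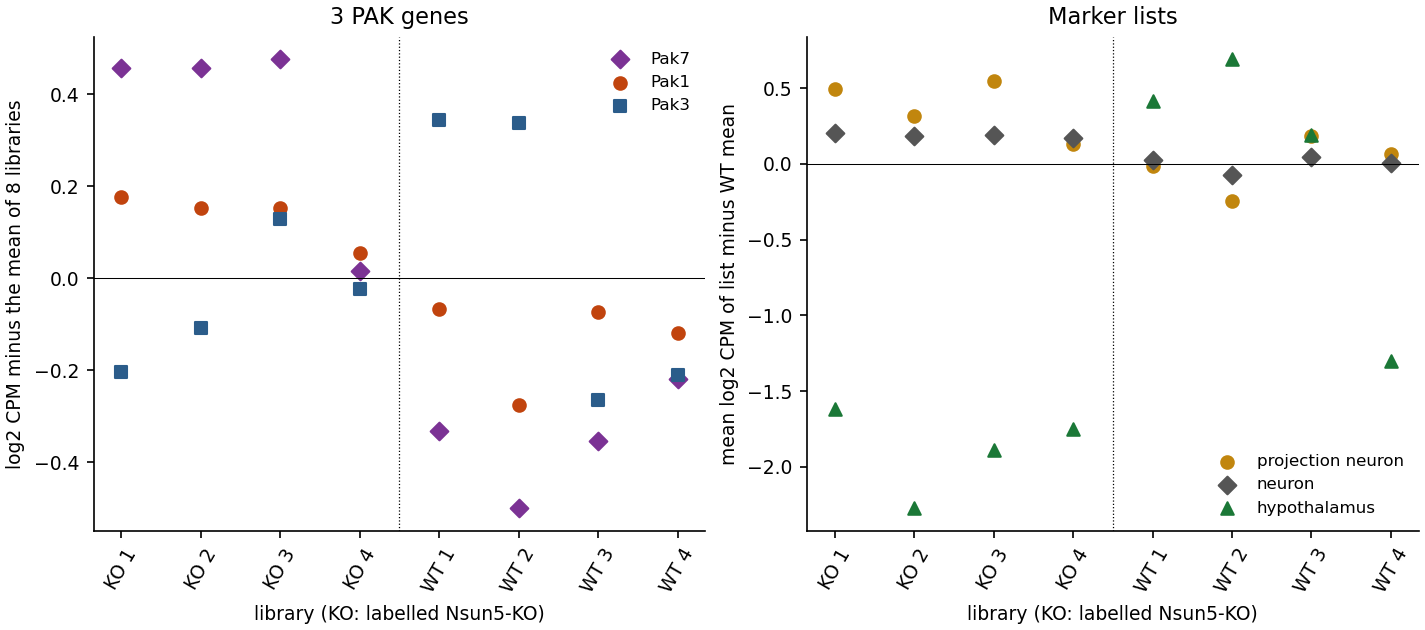
Left, log2 CPM of Pak7, Pak1 and Pak3 in each library minus the gene's mean over the 8 libraries; right, score (mean log2 CPM minus the WT mean) of the neuron, projection neuron and hypothalamus lists in the same libraries, with the 4 Nsun5-KO-labelled libraries (KO) left of the 4 WT libraries. Pak7 is lowest of its group in Nsun5-KO-labelled replicate 4, where the projection neuron score is 0.13, and Pak3 is highest in WT replicates 1 and 2, where the hypothalamic score is 0.41 and 0.69.

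The genes nearest to Pak7 in profile were on average higher in the Nsun5-KO-labelled libraries, as Pak7 was. Pak7 was chosen for this step, so near genes carry it by construction, and the order of likeness is a description only. Likeness was the root mean square difference of log2 CPM over the 8 libraries after each gene was centred on its own mean, so that 0 is an identical profile, and the median over 16061 other genes was 0.43. The nearest gene was Nuak1 at 0.12, a kinase of axon branching in cortical neurons, followed by the transcriptional repressor gene Bhlhe40 (0.12), the Nogo receptor gene Rtn4r (0.12), the membrane protein gene Tmem132d (0.13) and the interleukin 17 receptor gene Il17ra (0.14). Nuak1 had 129.5, 112, 134 and 100.4 CPM in the Nsun5-KO-labelled libraries, against 78.0, 66.0, 79.3 and 95.5 CPM in WT. As in Pak7, Nsun5-KO-labelled replicate 4 was the lowest of its group and WT replicate 2 the lowest of all. The groups did not overlap in Nuak1, Bhlhe40 and Tmem132d. They did overlap in Rtn4r (71.7 CPM in Nsun5-KO-labelled replicate 4, 73.8 CPM in WT replicate 4) and in Il17ra (15.9 and 17.5 CPM). Of the paralogs, Pak1 was nearest, at 0.25 and place 234 in the order, and Pak6 (0.39), Pak2 (0.43), Pak4 (0.45) and Pak3 (0.51) were at places 5418 to 11645.

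**Figure D4:**
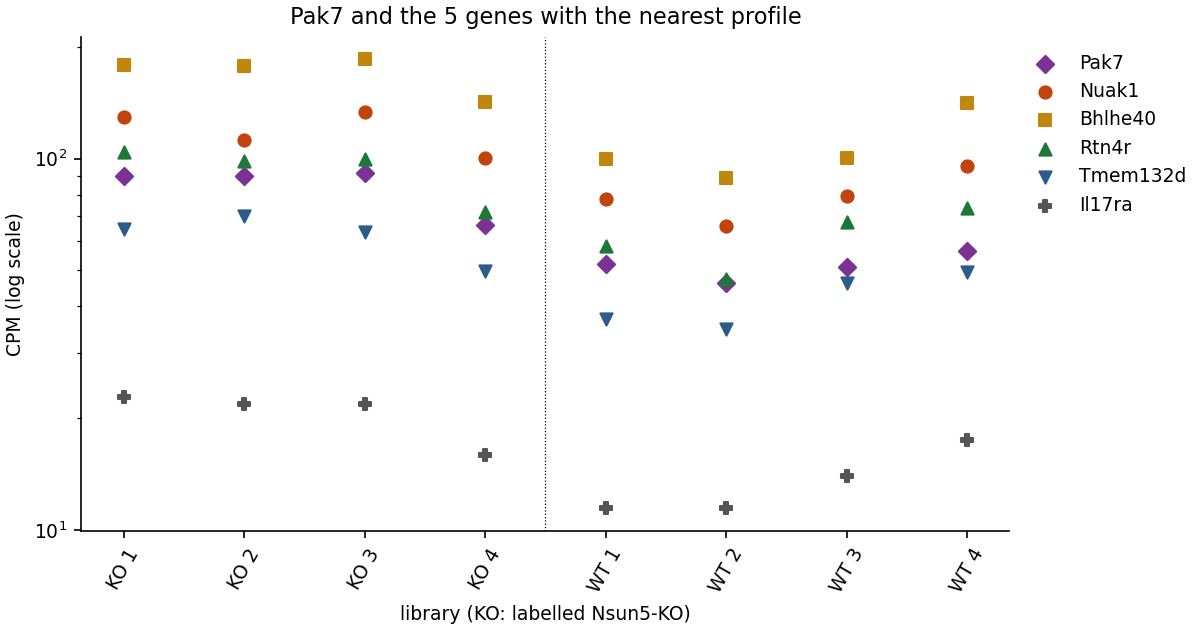
CPM (log scale) of Pak7 and of the 5 genes with the nearest profile in each library, the 4 Nsun5-KO-labelled libraries (KO) left of the 4 WT libraries. In all 6 genes replicate 4 is the lowest of the Nsun5-KO-labelled libraries, and WT replicate 4 is the highest WT library.

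The genes around the kinases showed a small median difference and no edgeR call, while single genes ran from -0.44 (Arpc1b) to 0.43 (Ctnnd1). Of 40 tested genes that activate, hold, inhibit or are phosphorylated by PAKs, 23 (57.5%) had a log2 fold change above 0, against 48.6% of all genes tested, with a median of 0.03 against -0.0055. Of the 40, 0 passed edgeR at an adjusted p below 0.05. At an unadjusted p below 0.05, 6 were higher and 1 lower, where 5.3% and 5.05% of all genes were. DESeq2 called 1 of them, Arpc1b, where it called 0.394% of all genes higher and 0.3% lower.

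In the scaffold that brings PAKs to membranes and focal contacts, 6 of 8 genes were above WT and the median was 0.06. Arhgef7, which encodes the exchange factor beta-PIX that binds PAKs directly, had 131 ± 7.70 CPM in the Nsun5-KO-labelled libraries and 119 ± 0.785 CPM in WT (log2 fold change 0.14, edgeR adjusted p = 0.464), and its groups did not overlap, as in 2.99% of all genes in that direction. Nck2, an SH2 and SH3 adaptor, had 35.9 ± 4.15 CPM in the Nsun5-KO-labelled libraries and 29.9 ± 4.42 CPM in WT (log2 fold change 0.26, adjusted p = 0.458), and Grb2, another such adaptor, was at 0.06. Among 6 inhibitors and phosphatases, Inka2, whose protein inhibits PAK4, had 148 ± 16.8 CPM in the Nsun5-KO-labelled libraries and 111 ± 29.4 CPM in WT (log2 fold change 0.41, adjusted p = 0.469). Its relative Inka1 was at -0.34 and Ppm1f, a phosphatase that acts on PAKs, at 0.08.

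Substrates of the actin and microtubule cytoskeleton lay on both sides of WT, with 3 of 11 above and a median of -0.05. Arpc1b, a subunit of the actin-nucleating Arp2/3 complex, had 14.3 ± 0.784 CPM in the Nsun5-KO-labelled libraries and 19.4 ± 1.15 CPM in WT. Its groups did not overlap, as in 2.71% of all genes in that direction (log2 fold change -0.44, SE 0.09, edgeR adjusted p = 0.307, DESeq2 adjusted p = 0.0275). Stmn1, which encodes the microtubule-destabilising protein stathmin, had 519.7 ± 18.8 CPM in the Nsun5-KO-labelled libraries and 435 ± 56.0 CPM in WT (log2 fold change 0.26, edgeR adjusted p = 0.393), and the actin crosslinker gene Flna was at -0.16. Limk1, a LIM kinase gene of the same chromosomal block as Nsun5, was at 0.18 (adjusted p = 0.668), and the cofilin gene Cfl1 at 0.00086.

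The 7 genes of partners and substrates linked to PAK5 were above WT in 7 of 7 cases, by a median of 0.12 on the log2 scale, where 48.6% of all genes were above WT. At an unadjusted edgeR p below 0.05 there were 2 higher and 0 lower, where 5.3% and 5.05% of all genes were. After adjustment edgeR and DESeq2 called 0. The score of the list overlapped between groups, at 0.20, 0.11, 0.20 and 0.21 in the Nsun5-KO-labelled libraries and -0.11, -0.04, 0.005 and 0.14 in WT. Its summed level also overlapped, at 1147 to 1311 CPM in the Nsun5-KO-labelled libraries and 1088 to 1169 CPM in WT. Groups separated without overlap in 0 of the 7 genes, where 2.99% of all genes did so in the higher direction. Ctnnd1, which encodes p120-catenin, had 11.9 ± 1.13 CPM in the Nsun5-KO-labelled libraries and 8.81 ± 1.99 CPM in WT (log2 fold change 0.43, edgeR adjusted p = 0.412). Pacsin1, a synaptic vesicle endocytosis gene, had 412 ± 12.5 CPM in the Nsun5-KO-labelled libraries and 357 ± 47.9 CPM in WT (log2 fold change 0.21, adjusted p = 0.459). The list of 8 neuronal markers had a median of 0.20, and its part in these values was not tested.

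Of 23 other effectors of Cdc42 and Rac, 10 were above WT and the median was -0.0017. The smallest p were those of Pard6g, a cell polarity gene, at -0.42 (edgeR adjusted p = 0.412), Cyfip2, a gene of the WAVE actin regulator, at 0.17 (adjusted p = 0.428), and the kinase gene Map3k10 at 0.18 (adjusted p = 0.550). DESeq2 called 0 of the 23. At an unadjusted edgeR p below 0.05 there was 1 higher and 1 lower, where 5.3% and 5.05% of all genes were.

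**Figure D5:**
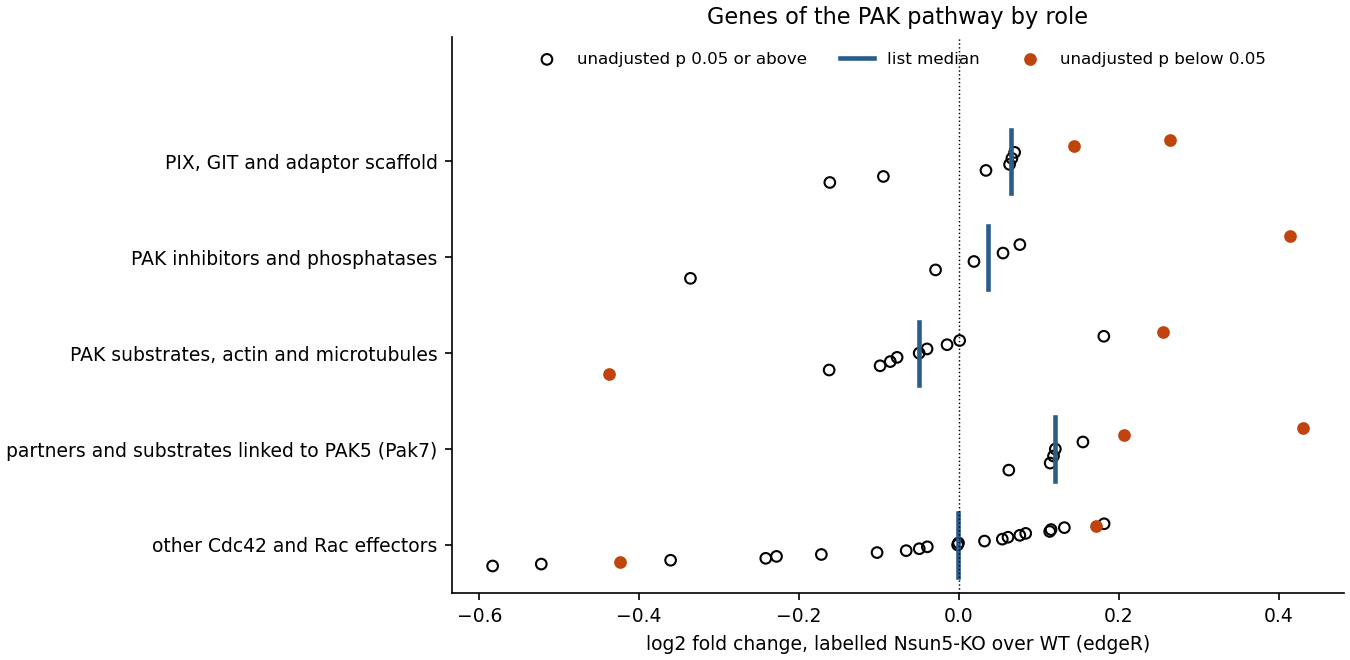
Log2 fold change (the Nsun5-KO-labelled libraries against WT) for 55 tested genes in 5 lists of the PAK pathway and related effectors; each point is a gene, filled where the unadjusted edgeR p was below 0.05, and blue lines are list medians. Medians run from -0.05 for cytoskeletal substrates to 0.12 for PAK5-linked genes, and no point passed edgeR after adjustment over all genes.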

How the data were processed

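The submitters' processing notes name HISAT2 2.0.5 and mm10. Which program counted reads, and with which gene models, is not given in the sources used here. Raw counts, whole numbers per gene, were deposited by the authors for 54532 genes, 1 column per library. The deposited FPKM values divide those counts by gene length and a constant per library. The library kit named in the labels' protocols does not mark strand.

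Counts were tested with edgeR 4.0.16 (R 4.3.3) over the 8 libraries: filterByExpr by group (16062 genes), trimmed mean of M values scaling, robust quasi-likelihood F test, and Benjamini-Hochberg adjustment over all genes, with calls at an adjusted p below 0.05. CPM use the same scaling. DESeq2 1.42.0, limma 3.58.1 (voom with weights, and the log2 of FPKM with 1 or 0.1 added), other scalings and filters, protein-coding genes alone, a replicate block and left-out libraries were alternatives. Intervals and spreads come from 4 libraries per group, and counting error is 1 over the square root of the mean count. The fit was tested on simulated data. All pairs of libraries of 1 group differed by more than sampling noise (chi-square per degree of freedom 7.74 to 22.3).

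The members, pathway and marker lists were chosen with earlier results of these data known. Named pathway genes are the 3 with the smallest edgeR p in each list, some of which are not reported here; Limk1 and Cfl1 were added for their roles after values were seen, as were the cerebellar genes, Sox10 and Hba-a2. The ratios of Pak7 to Pak6, Pak2 and Pak1 were also chosen after values were seen. Of the 8 listed inhibitors, Inka1 and Inka2 were also given by an older symbol, so that 6 genes remained. Protein sequences were not used here.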

Additional observations from a re-analysis of the deposited data

Results flagged for a closer look

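Each group of 4 libraries was examined for a library far from the other 3, for 6 genes and 2 groups, and chance alone marks about 1 in 20 such groups. Pak7 in Nsun5-KO-labelled replicate 4 was at 66.3 CPM, below the other 3 libraries at 90.0 to 91.2 CPM, a gap of 0.951 of the group's range against a critical value of 0.829. Pak6 in WT replicate 2 was at 57.6 CPM, below the other 3 WT libraries at 72.5 to 74.7 CPM, a gap of 0.868 of the range.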

How the results depend on the processing

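The number of genes called was 0 with edgeR, 97 with DESeq2, 68 with edgeR without the low-count filter and 0 to 2 with single libraries left out (2 without Nsun5-KO-labelled replicate 4); at an unadjusted edgeR p below 0.05 there were 852 higher and 811 lower. Pak1 was higher in all 20 alternatives, with a log2 fold change of 0.22 to 0.29. Pak7 ranged from 0.60 to 0.81, which is a description only, since it was chosen by this contrast in the same libraries. Pak1 passed in DESeq2 alone (0.27, adjusted p = 0.0328; the other 19 gave 0.169 to 0.871). Without WT replicates 1 and 2, Pak2 turned to 0.026, Pak3 to 0.19, Pak6 to -0.055 and the median of the other Cdc42 and Rac effectors moved to -0.066. With single libraries left out, Pak6 ranged from -0.048 to 0.083. Pak2, Pak3, Pak4 and Pak6 passed in none of the 20 alternatives, and the median of the PAK pathway genes stayed between 0.0030 and 0.046. The cause of these changes was not tested. Same-numbered libraries did not deviate together (correlations -0.21 to 0.063 against -0.17 to 0.18 for other pairs), so the numbers were not taken as pairs; with the replicate block 0 genes were called and Pak1 was at 0.27 (adjusted p = 0.588), Pak7 at 0.70. The order of the 6 genes by their mean over the 8 libraries was the same with CPM per kilobase. Both units divide counts by gene length and a constant per library. The order within a library therefore could not differ, and the agreement is no check of it. Depth limits Pak4 most.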

Other observations

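Pak7, Pak3 and Pak1 span 307, 279 and 124 kb of genome, the 3 longest loci of the family. Over all genes, the median differed little between classes of locus length: the 950 tested genes over 200 kb had a median log2 fold change of 0.0072, with 51.3% above 0, and the 1383 genes of 100 to 200 kb had 0.0042, with 50.8% above 0. The 4633 genes of up to 10 kb had a median of -0.021, with 45.8% above 0.

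The spread of Pak2 among the Nsun5-KO-labelled libraries was 1.73% of its mean, less than its counting error of 3.34%, while among WT libraries it was 8.76% against 3.24%. Pak3 spread by 9.89% in the Nsun5-KO-labelled libraries and 22.9% in WT, against counting errors of 1.96% in the Nsun5-KO-labelled libraries and 1.87% in WT.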
